A study of Mus musculus with 12 samples.

Results

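Slc6a2, Dbh, Th, Phox2a, and Pnmt are the transporter, enzyme, and transcription factor genes by which noradrenergic and adrenergic neurons are recognized. These 5 genes, taken by symbol with no cut on their level, were followed among the 55418 genes counted in the brainstem of 12 outbred CFW (Swiss Webster) mice at P15. Mixed litters had been injected subcutaneously with either saline or morphine, at 15 mg/kg and 2 times per day from P1 through P14, as a model of neonatal opioid withdrawal, and tissue was taken 16 h after the last dose. Each treatment had 3 females and 3 males, each mouse gave its own library, and no label says which pups shared a dam. The study's methods describe the tissue as medulla and pons, whereas the deposited extraction text names spinal cords.

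Noradrenaline is made in a few small nuclei of the pons and medulla, above all the locus coeruleus, which sends axons through most of the brain and spinal cord. Opioid receptors hold these neurons quiet, and the release of that brake during withdrawal is a long-known source of noradrenergic overactivity. Th converts tyrosine to L-DOPA, Dbh makes noradrenaline from dopamine, Pnmt methylates noradrenaline to adrenaline in a small group of medullary neurons, Slc6a2 encodes the transporter that takes released noradrenaline back up, and Phox2a is a homeodomain factor needed for the noradrenergic fate. Dbh is shared by noradrenergic and adrenergic cells, while Th is also made by dopaminergic neurons.

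Sequences are shown where they tie these genes to what was measured or to each other. The primer pair of the study's qPCR for Slc6a2 is shown for its place in the transcript, and qPCR values were not analysed here. The forward primer lies in exon 4 (chr8:92982006-92982025) and the reverse primer, which is the complement of the transcript, in exon 5 (chr8:92989054-92989073) of GRCm38, and both occur in 2 of 2 annotated transcripts.
Slc6a2 forward primer: tcagcctctggaaaggagtg
Slc6a2 reverse primer: ggaccaggagcacaaacaag
The promoters of Th and Dbh are shown because the levels of these genes moved together over the 12 libraries. Each runs from 250 bases before to 50 bases after the start of the RefSeq gene on GRCm38.p6, on the strand of the gene. Capitals mark the cyclic AMP response element TGACGTCA and the homeodomain core ATTA, searched on both strands.
Th promoter, chr7:142899946-142900245, minus strand: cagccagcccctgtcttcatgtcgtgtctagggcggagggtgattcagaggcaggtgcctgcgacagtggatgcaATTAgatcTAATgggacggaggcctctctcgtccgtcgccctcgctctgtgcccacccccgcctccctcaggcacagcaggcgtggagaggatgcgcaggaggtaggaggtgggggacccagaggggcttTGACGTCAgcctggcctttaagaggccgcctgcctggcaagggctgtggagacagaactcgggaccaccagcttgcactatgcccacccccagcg
Dbh promoter, chr2:27165257-27165556, plus strand: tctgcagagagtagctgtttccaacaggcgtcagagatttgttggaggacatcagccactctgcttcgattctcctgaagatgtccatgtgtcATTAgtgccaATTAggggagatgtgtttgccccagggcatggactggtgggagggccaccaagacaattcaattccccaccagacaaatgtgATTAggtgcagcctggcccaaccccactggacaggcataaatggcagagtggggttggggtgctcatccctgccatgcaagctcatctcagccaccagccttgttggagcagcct
The Th promoter held 1 cyclic AMP response element at -45 and homeodomain cores at -175 and -167. The Dbh promoter held 3 homeodomain cores, at -157, -147, and -65, and no cyclic AMP response element in these letters. Over 32851 mouse promoters of the same length, 1.79% held the cyclic AMP response element and 58% held a homeodomain core, so a core alone sets few promoters apart. The promoter of Phox2a held neither.

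Slc6a2 (ENSMUSG00000055368) lies at chr8:92960079-93001667 on the plus strand of GRCm38, Dbh (ENSMUSG00000000889) at chr2:27165233-27183200 on the plus strand, Th (ENSMUSG00000000214) at chr7:142892752-142931128 on the minus strand, Phox2a (ENSMUSG00000007946) at chr7:101818313-101822726 on the plus strand, and Pnmt (ENSMUSG00000038216) at chr11:98386450-98388181 on the plus strand. All are protein-coding, and reads were counted over their exons. Phox2a shares 95 exon bases with Inppl1 on the opposite strand, and the strand setting of the counting is not given in the sources used here, so reads from that overlap cannot be assigned with certainty.

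Libraries held between 27850565 and 48097947 counts on genes. Among the saline males, saline male 3 differed from the others by a chi-square of 198 and 257 per gene. Those males differed from each other by 12.5. The chi-square was taken only within groups, so it cannot say which of these libraries was unusual. By the GC index described below, saline males 1 and 2 were the highest of the 12 libraries and saline male 3 was the lowest. The male comparison turned on saline male 3. With it left out, 5341 of 18652 genes met the criteria given below, 2141 of them with an adjusted p under 0.05 by edgeR, against 543 of 18166 and 0 with it. In the library labelled morphine male 6, the female-specific Xist was at 379.9 CPM, against 547 to 970.5 CPM in the females and at most 2.71 CPM in the other males, and the Y-linked Ddx3y was at 12.8 CPM against 118 to 199 CPM in the other males, and this library stayed in its labelled group. Transcripts of nuclei that lie in pons and medulla were found throughout, with Tph2, the serotonin synthesis enzyme of the raphe, between 20.2 and 41.6 CPM and Chat, made by motor neurons, between 7.31 and 13.0 CPM. Neither gene could be compared with tissue from outside the brainstem, so these levels do not fix the limits of the dissection. Libraries were scaled by TMM, and levels are given as CPM, the count of a gene relative to the scaled total of its library.

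All 5 genes were detected, at levels that spanned more than an order of magnitude. Per kilobase of exon, the mean level over the 12 mice was highest for Dbh, at 2.46 ± 0.83 CPM per kb (SD, n = 12), followed by Th at 2.13 ± 1.06, Slc6a2 at 0.767 ± 0.249, Phox2a at 0.230 ± 0.085, and Pnmt at 0.135 ± 0.109. The means of Dbh and Th differed by less than the SD of either gene between mice. Those of Phox2a and Pnmt differed by less than the SD of Pnmt but by more than that of Phox2a. The order of these pairs within single libraries was not tested. The lowest Slc6a2 library, at 0.417 CPM per kb, lay above the highest Phox2a library, at 0.366. The spread between mice was wider than read counting gives. The coefficient of variation of Slc6a2 was 32.5% against 7.90% from Poisson counting, that of Th was 50.0% against 7.62%, and that of Phox2a was 36.9% against 24.9%. In bulk tissue, fewer noradrenergic cells and less RNA per cell cannot be told apart, and neither can the share of a nucleus that a dissection took.

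**Figure D1:**
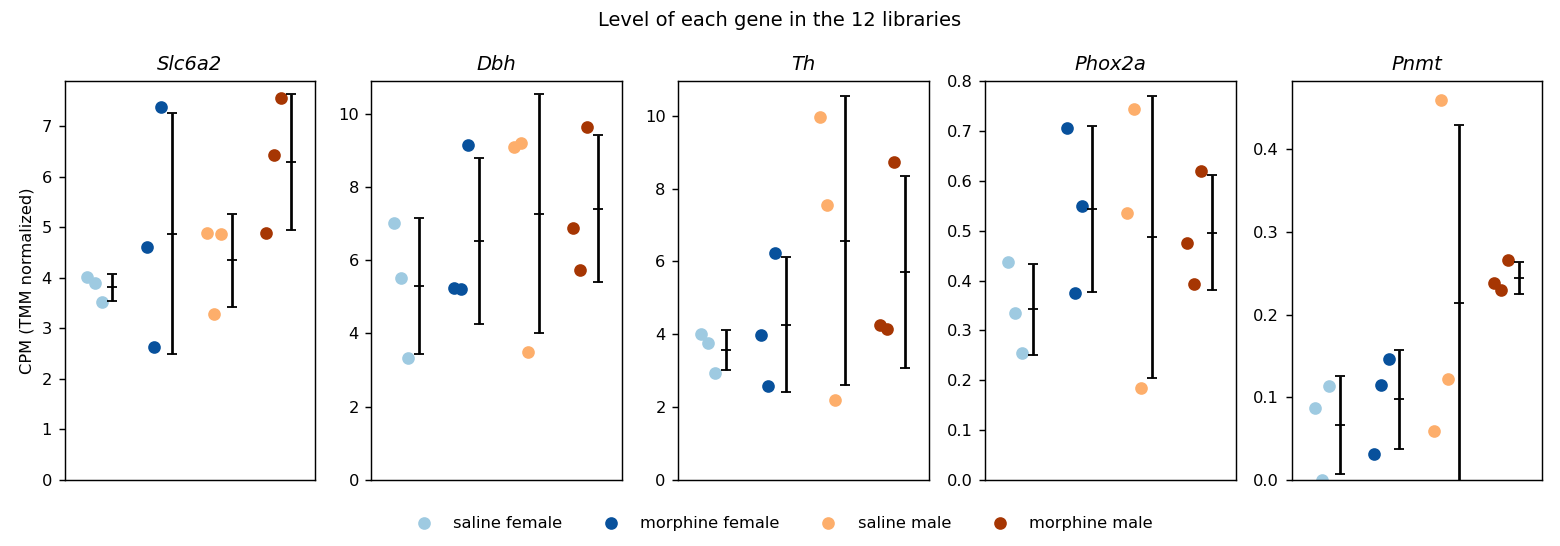
Level of each gene (CPM after TMM normalization, linear axis from 0, 1 panel per gene) in the 12 libraries, by treatment and sex. Points are mice, and the dash with its bar is the mean ± SD of 3 mice, with the lower bar of Pnmt in saline males ending at the axis. Slc6a2 reached 6.43 to 7.56 CPM in 3 morphine mice and at most 4.89 CPM in saline mice, while morphine female 2 was the lowest of all at 2.62 CPM.

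The question put to the morphine and saline mice was whether noradrenergic genes changed in the withdrawal state. None of the 4 genes that could be tested met the criteria of the study, an absolute log2 fold change above 0.26 with unadjusted p below 0.05, in the sex-combined comparison with sex as a covariate (quasi-likelihood test of edgeR). Over all 18608 genes tested, 1.19% were called while 0 had an adjusted p under 0.05 by edgeR, where 246 had an unadjusted p under 0.05, and likewise 0 by DESeq2. Each of the 4 fitted changes was above 0, with a median log2 fold change of 0.25, against -0.02 over all genes. Pnmt was too low to pass the filter on low counts.

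Slc6a2, the noradrenaline transporter, came closest to being called. Its level in saline mice ran from 3.28 to 4.89 CPM with a median of 3.96 CPM, and in morphine mice from 2.62 to 7.56 CPM with a median of 5.65 CPM. The groups overlapped, with 3 morphine mice above every saline mouse (morphine male 5, morphine female 3, and the library labelled morphine male 6) and 1, morphine female 2, below every saline mouse. The mean was 5.58 ± 1.90 CPM in morphine mice and 4.08 ± 0.68 CPM in saline mice (SD, n = 6 each). As fitted, the log2 fold change was 0.45 ± 0.22 (SE), with a 95% confidence interval of -0.02 to 0.93 (edgeR, adjusted p = 1.00). An exact two-sided permutation test of log2 CPM, added after the data were seen, gave a difference of 0.38 (exact p = 0.162). Over 23 other settings the gene was called in 6, while its adjusted p never fell below 0.932 where one was computed.

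Whether Slc6a2 was called turned on which mice were in the fit and on the method. The fitted change was 0.60 with morphine female 2 left out and 0.51 with morphine male 4 left out, and the gene was called in both. Over all genes, 225 of 18893 and 177 of 18900 were called in these fits. The fitted change of Slc6a2 was 0.26 with morphine female 3 left out and 0.37 with the library labelled morphine male 6 left out. With saline male 3 left out it was 0.47, and Slc6a2 was called in none of these. The Wald test of DESeq2 gave 0.45, scaling by total counts gave 0.50, and testing without a filter on low counts gave 0.44, and each of these called it. Over all genes these settings called 224 of 18608, 249 of 18608, and 754 of 37483, in that order.

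**Figure D2:**
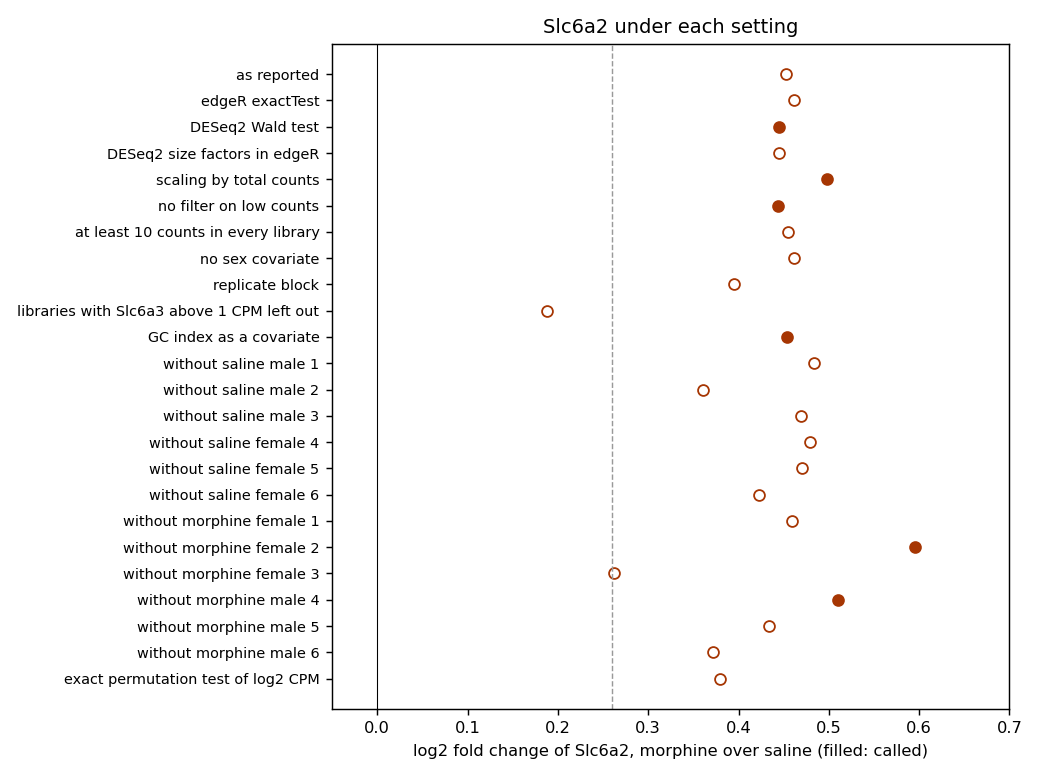
Log2 fold change of Slc6a2, morphine over saline, in the sex-combined comparison as reported and under 23 other settings (rows). Filled points are settings in which the gene was called, and the dashed line is the fold-change threshold of 0.26. The values run from 0.19, with 3 libraries left out, to 0.60, without morphine female 2.

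Th, the first enzyme of the pathway, overlapped throughout. Its level ran from 2.21 to 9.95 CPM in saline mice, with a median of 3.88 CPM, and from 2.56 to 8.74 CPM in morphine mice, with a median of 4.19 CPM, so the saline range held every morphine mouse. Its fitted log2 fold change was 0.03 ± 0.33, with an interval of -0.69 to 0.75 (exact permutation p = 0.868). Both the highest and the lowest Th level were in saline males, saline male 1 at 9.95 CPM and saline male 3 at 2.21 CPM.

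Dbh ran from 3.34 to 9.21 CPM in saline mice, with a median of 6.26 CPM, and from 5.22 to 9.63 CPM in morphine mice, with a median of 6.30 CPM. The low end differed, since saline male 3 and saline female 6 lay at 3.49 and 3.34 CPM and no morphine mouse was below 5.22 CPM, but the medians were nearly equal. Its fitted log2 fold change was 0.18 ± 0.26, with an interval of -0.39 to 0.74 (exact permutation p = 0.515).

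Phox2a was at 0.184 to 0.744 CPM in saline mice, with a median of 0.386 CPM, and at 0.375 to 0.707 CPM in morphine mice, with a median of 0.513 CPM. Between 6 and 34 counts per library stood behind these values, and the morphine range lay inside the saline range. Its fitted log2 fold change was 0.33 ± 0.32, with an interval of -0.37 to 1.03 (exact permutation p = 0.229).

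Pnmt rested on 0 to 21 counts per library, and 4 libraries held 3 counts or fewer. In saline female 5 no count was seen, which allows a level of up to 0.0912 CPM. Saline mice ranged from 0.00 to 0.459 CPM with a median of 0.10 CPM, and morphine mice from 0.0307 to 0.266 CPM with a median of 0.188 CPM. Both ends were saline mice, saline male 2 and saline female 5, so the morphine range lay inside the saline range. The difference in mean log2 CPM was 0.41 (n = 6 and 6, exact permutation p = 0.442).

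**Figure D3:**
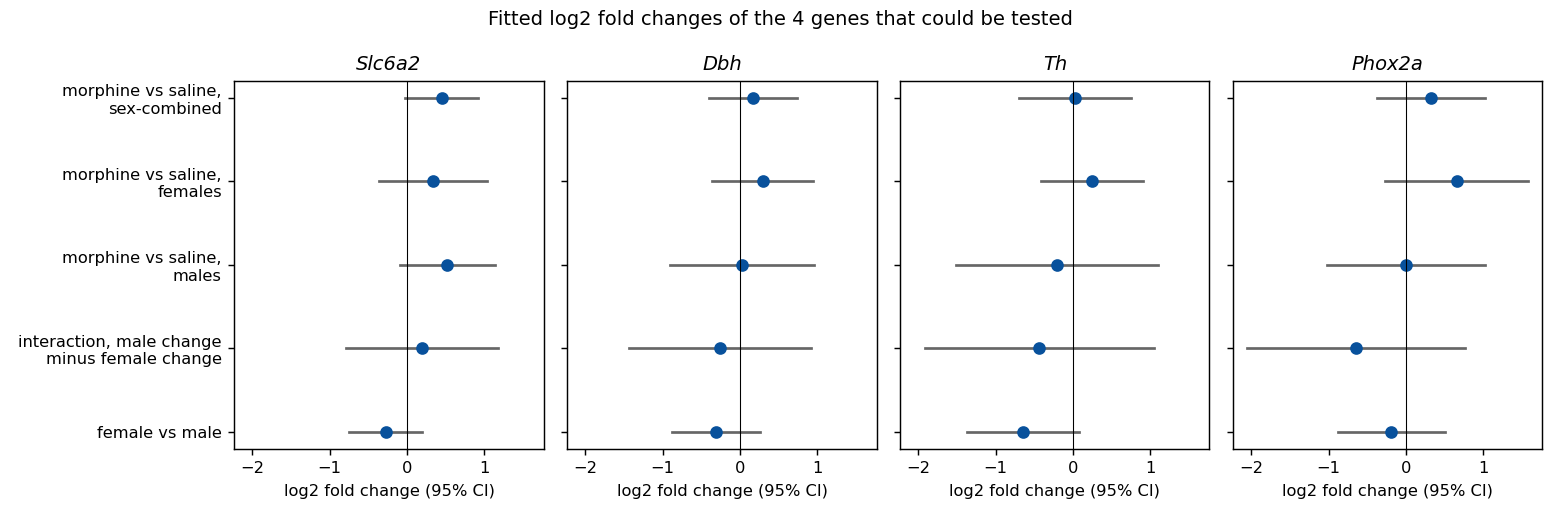
Fitted log2 fold change (point) and 95% confidence interval (line) of Slc6a2, Dbh, Th, and Phox2a (panels) in the 5 comparisons (rows). Every interval crosses 0, and those of the interaction are the widest, from -2.05 to 0.77 for Phox2a.

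Within each sex the number of called genes among the 4 was again 0. In females, where 1.81% of 18109 genes were called, all of the 4 fitted changes were above 0, with a median of 0.32. Phox2a had the largest, at 0.66 ± 0.42 (SE), from a mean of 0.342 ± 0.091 CPM in saline females (SD, n = 3) to 0.544 ± 0.166 CPM in morphine females (SD, n = 3), with 2 of the 3 morphine females above every saline female. For Slc6a2 the fitted value was 0.34 ± 0.31 (SE), from 3.81 ± 0.27 CPM to 4.87 ± 2.39 CPM (SD, n = 3 each). That estimate turned on single mice. It was 0.65, and called, with morphine female 2 left out, and -0.08 with morphine female 3 left out. Over all genes, 690 of 18502 were called in females with morphine female 2 left out.

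In males, where 2.99% of 18166 genes were called, Slc6a2 had a log2 fold change of 0.52 ± 0.26 (SE), with an interval of -0.09 to 1.14, from 4.35 ± 0.92 CPM in saline males to 6.29 ± 1.35 CPM in morphine males (SD, n = 3 each). The male groups barely overlapped here, since the lowest morphine male, at 4.87 CPM, lay beside saline males 1 and 3, at 4.89 and 4.87 CPM. It was 0.35 with saline male 2 left out and 0.36 with the library labelled morphine male 6 left out, and not called. Scaling by total counts gave 0.65 and called it, where that scaling moved the median male change of all genes from -0.06 to 0.06. Under that scaling 807 of 18166 genes were called in males. Leaving out saline male 3 gave 0.66 and called it, where 5341 of 18652 genes were called. The intervals of the other genes were wide, for Th from -1.51 to 1.11, with Th at -0.20 ± 0.55, Dbh at 0.03 ± 0.39, and Phox2a at -0.00 ± 0.43. Saline males 1 and 2 held high levels of each of these genes, and saline male 3 was the lowest male in each.

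The treatment change did not differ detectably between the sexes for any of the 4 genes. In the interaction fit, which took the male change minus the female change and called 2.94% of 19027 genes, the differences were 0.20 ± 0.45 for Slc6a2, -0.26 ± 0.54 for Dbh, -0.44 ± 0.68 for Th, and -0.64 ± 0.65 for Phox2a (edgeR, adjusted p of 0.985 or above). The interval was -1.92 to 1.05 for Th and -0.79 to 1.18 for Slc6a2, so a male change larger by 1 on the log2 scale lay within both intervals.

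Between the sexes themselves, 3.94% of 18608 genes were called in the sex term of the same fit, and 0 of the 4 genes. All 4 had lower fitted levels in females, led by Th at -0.64 ± 0.34 (edgeR, adjusted p = 0.734). Th ran from 2.56 to 6.24 CPM in females, with a median of 3.87 CPM, and from 2.21 to 9.95 CPM in males, with a median of 5.90 CPM, so the male range held every female (exact permutation p = 0.193). Th was called under DESeq2, with no filter, and with saline male 3 or morphine female 3 left out, and in no other setting. Over all genes, 1090 of 18608 were called between the sexes under DESeq2 and 2321 of 37483 with no filter. The count was 3947 of 18911 without saline male 3 and 800 of 18986 without morphine female 3. With the library labelled morphine male 6 left out, the Th difference was -0.48 and was not called. Pnmt was at a median of 0.10 CPM in females and 0.234 CPM in males, a log2 difference of -1.0 (n = 6 and 6, exact permutation p = 0.0346, with no correction, as 1 of 10 such tests over the 5 genes). That difference rested on a median of 3.5 counts in females and 7.5 in males, and males and females overlapped.

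The 5 genes did not form a single block across mice. Dbh and Th followed each other closely, with Pearson r = 0.90 and Spearman rho = 0.91 of log2 CPM over the 12 mice (permutation p = 9.00e-05 and 7.00e-05, adjusted over 10 pairs 0.000900 and 0.000700), and r = 0.91 within both the saline and the morphine mice. Phox2a followed Dbh with r = 0.81 (rho = 0.76, adjusted permutation p = 0.00620 and 0.0194) and Th with r = 0.76 (rho = 0.76, adjusted permutation p = 0.0123 and 0.0194). Many other genes reached such values. Depending on which gene of the pair was held fixed, 13.0% or 8.88% of genes reached the r of Dbh with Phox2a. For Th with Phox2a these shares were 19.0% and 15.2%. Without the 2 mice farthest from the median of the first gene, r was 0.90 for Dbh with Th, 0.56 for Dbh with Phox2a, and 0.82 for Th with Phox2a.

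Slc6a2 had lower r with these genes over the 12 mice. Its r was 0.39 with Dbh, 0.45 with Th, and 0.22 with Phox2a, and none passed the test (adjusted permutation p between 0.358 and 0.551). Within the morphine mice r with Th was 0.89 and with Dbh 0.75, and within the saline mice -0.05 and -0.07, and r with Th was 0.98 within the females and 0.01 within the males, and these differences were not tested. Saline male 1, morphine female 3, and the library labelled morphine male 6 were high in the dopaminergic marker Slc6a3, as described below. Without these libraries, r of Slc6a2 was 0.04 with Th and -0.07 with Dbh. Pnmt had r between 0.19 and 0.35 with the other 4.

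A broad property of the libraries moved with Dbh, Th, and Phox2a. A GC index was taken for each library as the mean log2 deviation of genes in the top quartile of GC content, at least 53.96%, minus that of genes in the bottom quartile, at most 44.39%. It ran from -0.88 in saline male 3 to 0.92 in saline male 2, with saline male 1 at 0.72 and the library labelled morphine male 6 at 0.44. Its Pearson r over the 12 mice was 0.89 with Dbh, 0.91 with Th, and 0.85 with Phox2a, and these 3 genes have exon GC contents of 55.9%, 54.1%, and 63.8%, all in the top quartile. For Pnmt, with a GC content of 60.4%, also in that quartile, r was 0.37, and for Slc6a2, with 50.1%, it was 0.10 (n = 12). Without the 3 saline males, which held both ends of the index, r was 0.93 for Dbh, 0.87 for Th, 0.79 for Phox2a, 0.43 for Pnmt, and 0.67 for Slc6a2 (n = 9). Of the 18608 genes, 14.3% had an r with the index at or above that of Th, and 2.99% had an r with Dbh at or above that of Th with Dbh. The part of this index in the shared course of Th, Dbh, and Phox2a was not tested.

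**Figure D4:**
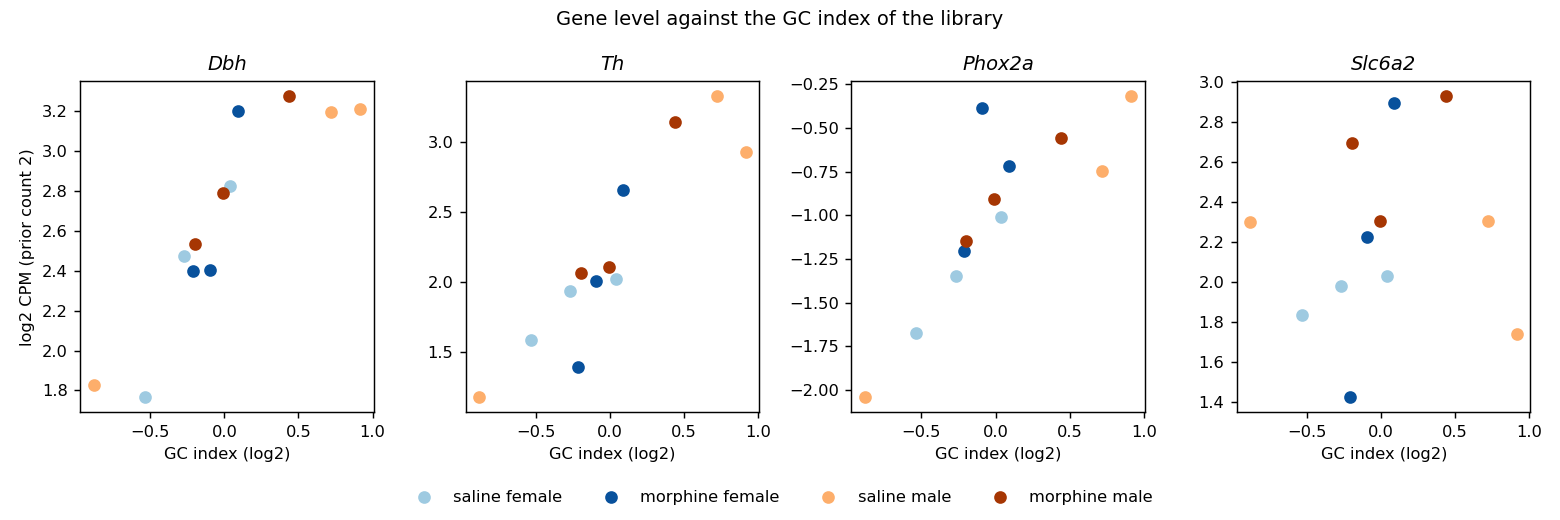
Level of Dbh, Th, Phox2a, and Slc6a2 (log2 CPM, prior count of 2, 1 panel per gene) against the GC index of the library (log2 difference), with points for the 12 mice coloured by group. Dbh, Th, and Phox2a rise with the index, with r = 0.89, 0.91, and 0.85. For Slc6a2 r is 0.10 over the 12 mice and 0.67 without the 3 saline males.

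With the GC index as a covariate, a setting chosen after the data were seen, the sex-combined log2 fold change of Slc6a2 was again 0.45, now called, with an adjusted p of 0.936 by edgeR. Those of Dbh, Th, and Phox2a were 0.23, 0.10, and 0.46, and none was called. Over all 19582 genes tested in that fit, 428 were called for treatment. The female minus male difference of Th was -0.12 in that fit, against -0.64 without the covariate.

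The genes whose levels most resembled each of these were not noradrenergic genes. By Pearson r over the 12 mice among genes tested, those nearest to Dbh were H2afy, Got2, and Ppp2r1a (r of 0.98 for each), those nearest to Th were Rpp25, Pwp2, and Timm44 (0.97, 0.96, and 0.96), and those nearest to Phox2a were 2810468N07Rik, Acox3, and Tmem14c (0.93 for each). Slc6a2 was nearest to Kat8, Mnd1, and AB041806 (0.84, 0.83, and 0.82), and Pnmt to Slc30a6, Mpp3, and Spata18 (0.86, 0.80, and 0.80).

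A marker of dopaminergic neurons was high in some of the libraries with high Th and Slc6a2. Slc6a3, the dopamine transporter gene, which is made by midbrain dopaminergic neurons and not by noradrenergic ones, stood out in 3 libraries, at 5.99 CPM in saline male 1, at 3.82 CPM in morphine female 3, and at 6.79 CPM in that labelled morphine male 6. In the other 9 it was at 0.153 to 0.754 CPM. Th was at 9.95, 6.24, and 8.74 CPM in these 3 libraries, and only saline male 2, at 7.55 CPM with Slc6a3 at 0.153 CPM, reached such a level without it. Slc6a2 was highest in the library labelled morphine male 6 and in morphine female 3, at 7.56 and 7.38 CPM, while saline male 1 was at 4.89 CPM.

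The r of Slc6a3 over the 12 mice was 0.71 with Slc6a2, 0.61 with Th, 0.51 with Dbh, 0.24 with Phox2a, and -0.02 with Pnmt. Of the other genes of the dopaminergic list, Pitx3 lay between 0.00 and 0.119 CPM, with its highest value, of 4 counts, in saline male 1. In saline male 1, morphine female 3, and the library labelled morphine male 6, Nr4a2 was at 5.69, 6.64, and 5.23 CPM. Aldh1a1 was at 112, 117, and 94.7 CPM, and En1 at 2.21, 1.94, and 1.65 CPM, in the same order. In the other libraries Nr4a2 ran from 4.58 to 7.77 CPM, Aldh1a1 from 85.1 to 154 CPM, and En1 from 0.80 to 1.87 CPM. Only En1 exceeded its range, in saline male 1 and morphine female 3. The summed level of the 5 dopaminergic genes ran from 120.5 to 161 CPM in saline mice and from 93.3 to 151 CPM in morphine mice, most of it from Aldh1a1 at 85.1 to 154 CPM, with 0 of the 4 that could be tested called in the sex-combined comparison. In females Slc6a3 was the only called gene of the list, with a log2 fold change of 1.84 ± 0.75, and morphine female 3 was the only female above 1 CPM. Its part in the levels of Th and Slc6a2 was not tested.

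Without the 3 libraries that had Slc6a3 above 1 CPM, a choice made after the data were seen, the sex-combined log2 fold change of Slc6a2 was 0.19, against 0.45 over all 12 mice, that of Th was -0.16, that of Dbh -0.0029, and that of Phox2a 0.30, and none was called. Of the 3 mice left out, 2 were morphine mice.

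**Figure D5:**
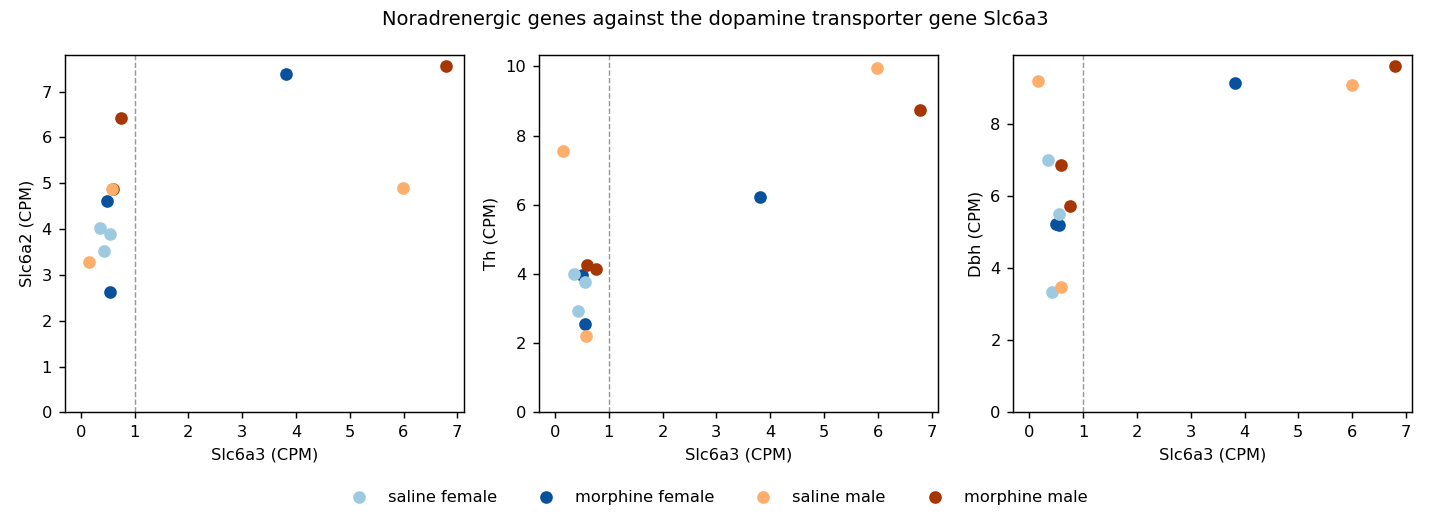
Level of Slc6a2, Th, and Dbh (CPM, linear axis from 0) against that of Slc6a3 (CPM) in the 12 libraries, coloured by group, with a dashed line at 1 CPM. The 3 libraries right of the line, saline male 1, morphine female 3, and the library labelled morphine male 6, hold 3 of the 4 highest Th levels and the 2 highest Slc6a2 levels.

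Set against Dbh, none of the other 4 genes differed detectably between treatments. The ratio of Slc6a2 to Dbh, in CPM, ran from 0.356 to 1.39 in saline mice, with a median of 0.640, and from 0.503 to 1.12 in morphine mice, with a median of 0.796. The ratio of Th to Dbh ran from 0.568 to 1.10 in saline and from 0.492 to 0.908 in morphine mice, with medians of 0.752 and 0.701. The mean log2 ratio differed between morphine and saline mice by 0.16 for Slc6a2, -0.15 for Th, 0.15 for Phox2a, and 0.19 for Pnmt (exact two-sided permutation test, n = 6 and 6, p = 0.630, 0.426, 0.513, and 0.706, and 0.706 for each after adjustment over the 4 ratios). The SD of the log2 ratio of Slc6a2 was 0.70 in saline and 0.38 in morphine mice. Over all mice, r with the GC index was 0.89 for Dbh and 0.10 for Slc6a2. The part of that index in these ratios was not tested.

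The genes that work beside these 5 are read against the share of all genes called, which was 1.19% in the sex-combined comparison, 1.81% in females, and 2.99% in males. Of 14 genes for the synthesis cofactor, storage, and breakdown of catecholamines, 14 were tested and 0 were called in the sex-combined, female, or male comparisons, and their median log2 fold change was -0.02, 0.10, and -0.11 in these comparisons in that order. Ddc, the decarboxylase that follows Th, was at 0.03 ± 0.14 (log2 fold change, SE), and Slc18a2, the vesicular monoamine transporter, at 0.12 ± 0.16. Both are made by serotonergic neurons too.

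Of 13 transcription factors of the noradrenergic fate, 10 were tested in the sex-combined comparison, 1 was called higher, and 0 were called lower, where 1.19% of all genes were called, with a median of 0.05. The called gene was Onecut3, a cut-homeodomain factor of developing noradrenergic neurons, which lay between 1.58 and 2.15 CPM in saline mice, with a median of 1.93 CPM, and between 1.96 and 2.79 CPM in morphine mice, with a median of 2.30 CPM. The groups overlapped, and its log2 fold change was 0.30 ± 0.14 (edgeR, adjusted p = 1.00).

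Of 12 genes often found in locus coeruleus or medullary catecholamine neurons, all 12 were tested and 0 were called in the sex-combined comparison, against 1.19% of all genes. In males, where 2.99% of all genes were called, Gal, a neuropeptide of the locus coeruleus, was called lower, at -0.83 ± 0.30 (log2 fold change, SE), where the median of the 12 was -0.21. The male change of Gal differed from the female change by -0.90 ± 0.41 and was called in the interaction, with an adjusted p of 0.985 by edgeR, while the fitted change in females was 0.09 ± 0.24.

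Some markers of neighbouring tissue were called, in a comparison where 1.19% of all genes were, and none had an adjusted p under 0.05 by edgeR. Of 5 cerebellar granule cell genes, 3 (Gabra6, Fat2, and Cbln3) were called higher in morphine mice in the sex-combined comparison, and the summed level of the 5 ran from 21.0 to 41.2 CPM in saline mice and from 31.7 to 79.9 CPM in morphine mice, with morphine male 5, at a Gabra6 level of 19.1 CPM, the highest. Of 3 meningeal genes, Dcn was called lower at -0.49 ± 0.22 (log2 fold change, SE), and in females at -0.76 ± 0.19, with sums of 90.5 to 143 CPM in saline and 60.5 to 117 CPM in morphine mice. Choroid plexus sums ran from 7.63 to 513 CPM in saline and from 26.2 to 809 CPM in morphine mice, with 0 of 3 called in the sex-combined comparison and 2 of 3, Kl at 0.68 ± 0.29 and Folr1 at 1.06 ± 0.30, in males, where 2.99% of all genes were called. In females Ttr, Kl, and Folr1 were at -0.73 ± 1.29, -0.66 ± 0.43, and -0.91 ± 1.18, and none was called. Kl was called in the interaction, at 1.35 ± 0.60, and so was the granule cell gene Fat2, at 0.89 ± 0.23, where 2.94% of all genes were. Ttr and Folr1 were called lower in females than in males, at -2.02 ± 0.89 and -1.92 ± 0.77, where 3.94% were. So were Barhl1 of the granule cell list, at -0.61 ± 0.21, and Pcp2 of the Purkinje list, at -1.18 ± 0.51. The 3 granule cell genes were called in males as well, from 0.81 ± 0.17 for Fat2 to 1.35 ± 0.46 for Gabra6. In females, where 1.81% of all genes were called, 0 of the 5 granule cell genes were, with Fat2 at -0.06 ± 0.15. Lists of Purkinje, serotonergic, and hindbrain motor neuron genes, of 5, 3, and 4 members, gave 0 calls for treatment. The r of Slc6a2 with Gabra6 was 0.33 and with Ttr 0.38 (n = 12), and the part of these tissues in the level of Slc6a2 was not tested.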

How the data were processed

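Poly-A RNA of 12 brainstems was sequenced by the authors as 100 base single-end reads on 1 lane. Per the labels and the study's methods, the authors used scruff for preprocessing, Trimmomatic for trimming, STAR for alignment to mm10, and featureCounts for the exon reads of an Ensembl GRCm38 annotation. The deposited values are counts per gene. The paper calls them normalized, but they are whole numbers with unequal totals, so they were used as raw counts. Symbols were matched to GENCODE M21 (55418 of 55418, 115 standing for several genes).

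Groups came from the labels for agent and sex. No label gives the dam, a covariate the series names, so dam was not used here. With littermates unknown, p-values measure the spread between these mice. The 5 genes, the lists around them, and the rule for naming others (list genes called in the sex-combined, female, or male comparison, Onecut3, and the 3 genes most correlated with each of the 5) were chosen with earlier results of these data known. Ddc, Slc18a2, Slc6a3, Pitx3, Nr4a2, Aldh1a1, En1, Tph2, Chat, Ttr, Barhl1, and Pcp2 were named as well, some after their values were seen. Xist and Ddx3y were named for the check of sex. Another gene that belonged to the lists was left out of them and is not reported here.

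Counts were tested over the whole table by quasi-likelihood (edgeR 4.0.16, R 4.3.3, TMM, filterByExpr with a minimum count of 10, Benjamini-Hochberg adjustment over all genes tested). The thresholds were those of the study, and 0 genes in the treatment comparisons and 5 in that of the sexes had an adjusted p under 0.05 (counts without saline male 3 are given with the results). Intervals are 95% intervals from the t quantile of the fit. Log2 CPM used a prior count of 2. Exact and 100000-resample permutation tests used scipy 1.17.1. The alternatives tried were the Wald test of DESeq2 1.42.0, exactTest, other scalings and filters, no covariate, a replicate block, a common fit for both sexes, p alone, and leaving out each mouse. The fits were tested on simulated data. Counts of 0 were read against a floor of 3 counts, which covers counting error only. No label says that replicate numbers pair the mice, so the main fits have no block.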

Additional observations from a re-analysis of the deposited data

Results flagged for a closer look

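In saline male 2, Pnmt, the enzyme that makes adrenaline, was at 0.459 CPM, from 21 counts, and the next highest saline mouse was at 0.123 CPM. The gap to that mouse was 0.733 of the range of the 6 saline mice, beyond the 95% limit for a group of that size. Of 10 groups tested in this way (5 genes in the saline and in the morphine mice), this was the only one past the limit, and chance passes about 1 in 20. That rate was not checked for counts as low as those of Pnmt.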

How the results depend on the processing

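Among the 5 genes, the number called was 0 in every comparison as reported. It was 1, Slc6a2, in the sex-combined comparison under DESeq2, scaling by total counts, the GC index covariate, and no filter, and 1, Slc6a2, in males under scaling by total counts. In the comparison of sexes it was 1, Th, under DESeq2 and 2, Th and Pnmt (log2 difference of -1.48), with no filter. Leaving out each mouse gave 0 to 1 calls in the sex-combined, female, and male comparisons and 0 to 2 between the sexes. No label says that the replicate numbers shared by the arms pair mice. Deviations of libraries with the same number had correlations between -0.36 and 0.18, which cannot show whether they were littermates. With a replicate block the count was 0 in both comparisons that allow one, with Slc6a2 at 0.40.

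Over all genes, the numbers called in the sex-combined, female, male, interaction, and between-sex comparisons were 221, 328, 543, 559, and 733. With no filter they were 754, 1094, 985, 1665, and 2321. Leaving out each mouse gave up to 458, 1482, 5341, 4695, and 3947, in that order (the female count without saline female 4, the others without saline male 3), and the lowest were 177, 208, 253, 290, and 330. Without saline male 3, 2141, 1796, and 476 genes had an adjusted p under 0.05 by edgeR in the male, interaction, and between-sex comparisons, against 0, 0, and 5. Without the Slc6a3 libraries 214, 221, and 293 genes were called in these comparisons. The GC index covariate gave 428 (sex-combined), the replicate block 483 (between the sexes), and the fit of all 12 mice 218 (females).

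Several small changes turned sign. The sex-combined change of Th was -0.011 with exactTest, -0.013 with no sex covariate, and -0.16 without the libraries with Slc6a3 above 1 CPM, and ran from -0.17 to 0.25 when leaving out each mouse. That of Phox2a in males was 0.0036 with exactTest, 0.026 under DESeq2, 0.016 with DESeq2 size factors, 0.12 scaled by total counts, and 0.023 from the fit of all 12 mice, and from -0.34 to 0.44 leaving out each mouse. Without the Slc6a3 libraries, Dbh was at -0.0029 (sex-combined), -0.021 (females), -0.023 (males), and 0.030 (interaction), and in females Slc6a2 was at -0.083 and Th at -0.14. With the GC index covariate, the difference between the sexes was 0.042 for Dbh and 0.29 for Phox2a. Leaving out each mouse gave, in females, -0.083 to 0.65 for Slc6a2, -0.021 to 0.55 for Dbh, and -0.14 to 0.51 for Th. It gave -0.26 to 0.23 for Dbh and -0.66 to 0.22 for Th in males, -0.11 to 0.63 for Slc6a2 and -0.60 to 0.065 for Dbh in the interaction, and -0.36 to 0.044 for Phox2a between the sexes. Log2 ratios to Dbh ran from -0.029 to 0.36 for Slc6a2, -0.0065 to 0.22 for Phox2a, and -0.085 to 0.39 for Pnmt.

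Correlations with Slc6a2 within saline and within morphine mice were -0.072 and 0.75 for Dbh, -0.046 and 0.89 for Th, -0.35 and 0.44 for Phox2a, and -0.43 and 0.45 for Pnmt, and that with Th was 0.11 without the 2 farthest mice. Within morphine mice, r was 0.37 for Dbh with Phox2a (0.56 without the 2 farthest mice), 0.56 for Dbh with Pnmt, and -0.40 for Phox2a with Pnmt. Leaving out each mouse gave 0.14 to 0.50 for Th with Pnmt, 0.055 to 0.47 for Slc6a2 with Pnmt, and 0.042 to 0.47 for Phox2a with Pnmt. The cause of these shifts was not tested. Low counts limit Phox2a (6 to 34) and Pnmt (0 to 21), and with 3 mice per arm every interval within a sex was wider than 1 on the log2 scale.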
